A study of Rattus norvegicus with 8 samples.

Results

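The genes described are 10 core genes of the circadian clock, taken as every probe set on the array whose only annotated gene symbol was Clock, Npas2, Per1, Per2, Per3, Cry1, Cry2, Nr1d1, Nr1d2 or Dbp. All 10 were measured, by 18 of the 31042 probe sets tested, and 5 of them by a single probe set. Muscle RNA came from 8 male Sprague-Dawley rats aged 6 weeks, with 1 array per rat. The epitrochlearis, a thin fast-twitch muscle of the rat forelimb, was taken from 4 rats given carbohydrate with whey protein hydrolysate (WPH, n = 4) and from 4 rats given carbohydrate with a mixture of amino acids (AAM, n = 4). Both meals held 44 kJ and were given by gavage straight after 2 h of swimming. Every rat had practised swimming for 3 days, had been limited to 5 g of chow on the day before, and lived with lights on from 8 to 20 h. Swimming and gavage were common to both groups, so neither exercise nor feeding as such is compared. The clock time of swimming and of muscle sampling, the barrel of each rat and the array batch are not known here.

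The circadian clock is a feedback loop of transcription that most cells run, muscle fibres included. CLOCK, or its close relative NPAS2, pairs with BMAL1 and switches on genes that carry E-boxes. The PER and CRY proteins made from those genes return to the nucleus and block the pair. In a linked loop, the nuclear receptors NR1D1 and NR1D2 (REV-ERB alpha and beta) repress Bmal1, Npas2, Clock and Cry1 through binding elements for ROR and REV-ERB. DBP is a transcription factor made under E-box control that carries the rhythm to other genes through D-boxes. Dbp, the Per genes and the Nr1d genes peak at about the opposite time of day to Bmal1 and Npas2, and Cry1 peaks late. Feeding, glucocorticoids and exercise can each reset the clock of muscle.

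The values were the authors' processed expression levels on a scale like log2, between 5.28 and 14.2. Their differences between arrays were far smaller than log2 differences usually are, with a median SD over the 8 arrays of 3.69e-06, so a difference cannot be read as a fold change. Values on each array are therefore given as z-scores, the deviation from the gene's mean over the 8 arrays in units of its SD. The effect of the meal is given as the standardized difference, WPH minus AAM in units of the pooled SD within meals. Each gene is represented by its brightest probe set unless another is named, and levels of different genes are not compared. Of the labelled tissue, the markers Acta1, Ckm, Mb, Des and Ttn had mean levels of 12.77 to 14.24. The 9 fast-fibre markers measured had 11.33 to 14.11 and the 6 slow-fibre markers 9.91 to 11.58. Fibroblast markers had 8.98 to 13.29 and adipocyte markers 6.09 to 13.82. These levels therefore do not give the share of a cell type. Macrophage, neutrophil, lymphocyte, endothelial, fibroblast, adipocyte, erythrocyte, Schwann cell, smooth muscle and skin markers were measured as well. Between the meals 0 of all these markers passed limma's adjusted threshold, as did 0 of all 31042 probe sets. The only cell markers with an unadjusted limma p below 0.05 were 1 of 3 Schwann cell and 1 of 3 smooth muscle markers. Of all probe sets 3.58% had such a p. After WPH, 8 of 9 fast-fibre and 1 of 6 slow-fibre markers had a higher mean, against 46.1% of all genes. Arrays of WPH replicate 4 and AAM replicate 3 stood at 1 end of the first principal component of all genes, with scores of 0.408 and 0.659, which bears on every correlation given here. In whole muscle, fewer cells of a type and less RNA per cell cannot be told apart.

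The promoters of 9 of the 10 genes were available as RefSeq windows on the GRCr8 assembly, from 250 bases before to 50 bases after the start site. Both strands were searched for the E-box CACGTG, the E-prime-box CACGTT, the D-box TTANGTAA, the REV-ERB and ROR element (AANT directly followed by AGGTCA) and the cAMP response element TGACGTCA. Of 33365 distinct windows in the table, 6.43% held an E-box, 4.84% an E-prime-box, 2.24% a D-box, 0.243% the REV-ERB and ROR element and 1.83% the cAMP response element. Among the members, Per2 and Cry2 held 1 E-prime-box each, Per2 also 1 D-box, and the 2 windows of Nr1d1 held 1 E-box and 1 E-prime-box. The windows of Clock, Npas2, Per1, Per3, Nr1d2 and Dbp held no match, which says only that these letters are not in these windows. The 4 sequences printed are those with a match that the results return to: Per2 and Bmal1, which had a positive and a negative r with Dbp across the rats at an exact p below 0.05, and Cry2 and Nr1d1, which had none. Capitals mark the motif matches.
Per2 (chr9:99496944-99497243, minus strand): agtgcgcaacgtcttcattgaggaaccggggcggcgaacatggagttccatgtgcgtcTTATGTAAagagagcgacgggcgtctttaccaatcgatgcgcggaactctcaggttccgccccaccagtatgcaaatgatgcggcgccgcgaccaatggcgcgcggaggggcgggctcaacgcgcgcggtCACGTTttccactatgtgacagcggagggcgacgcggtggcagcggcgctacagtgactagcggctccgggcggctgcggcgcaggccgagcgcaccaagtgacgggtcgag
Cry2 (chr3:98860388-98860687, minus strand): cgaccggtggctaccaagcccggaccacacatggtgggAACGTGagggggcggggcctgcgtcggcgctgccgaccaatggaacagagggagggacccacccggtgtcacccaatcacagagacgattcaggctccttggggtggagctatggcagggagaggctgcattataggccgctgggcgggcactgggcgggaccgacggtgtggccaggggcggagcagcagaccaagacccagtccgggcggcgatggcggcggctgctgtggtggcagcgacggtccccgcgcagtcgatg
Nr1d1 (chr10:84229405-84229704, minus strand): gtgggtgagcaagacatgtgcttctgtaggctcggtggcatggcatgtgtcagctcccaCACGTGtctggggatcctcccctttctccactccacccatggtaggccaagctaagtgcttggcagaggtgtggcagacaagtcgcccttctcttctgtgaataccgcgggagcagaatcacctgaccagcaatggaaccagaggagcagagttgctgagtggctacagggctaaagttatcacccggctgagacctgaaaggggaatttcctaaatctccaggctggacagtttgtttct
Bmal1 (chr1:176766078-176766377, plus strand): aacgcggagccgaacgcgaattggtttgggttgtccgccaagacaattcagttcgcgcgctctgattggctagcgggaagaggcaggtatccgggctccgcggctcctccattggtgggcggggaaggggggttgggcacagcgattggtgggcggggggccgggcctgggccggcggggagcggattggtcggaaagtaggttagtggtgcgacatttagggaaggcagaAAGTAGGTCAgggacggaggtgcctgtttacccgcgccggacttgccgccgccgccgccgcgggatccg
The E-prime-box of Per2 began 62 bases and its D-box 192 bases before the start site. The E-prime-box of Cry2 began 212 bases and the E-box of Nr1d1 191 bases before it, and the REV-ERB and ROR element of Bmal1 began 19 bases before it. A match is a description of the sequence, not a measured binding site.

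The first question is whether the clock genes differed between the meals. No member passed the test: limma's adjusted p was under 0.05 for 0 of the 18 (0% of all 31042), and its unadjusted p was under 0.05 for 0 of the 18 (3.58% of all). The 4 WPH and the 4 AAM arrays overlapped for each of the 18 probe sets, while 2.23% of all probe sets showed no overlap. Of the 10 genes, 6 had a higher mean after WPH, against 46.1% of all 14217 genes, and the median standardized difference was 0.17 for the 10 genes and -0.06 for all genes. The gene with the largest difference, Npas2, had 1.44 (95% interval -0.20 to 2.99), and each of the 18 intervals included 0. With 4 arrays a group, these intervals leave room for differences of more than 1 SD in either direction for several of the genes, so the data do not show that the meals acted alike.

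Clock, the DNA-binding partner of BMAL1, had a mean level of 8.44 with an SD of 9.09e-05 over the 8 arrays. Its z-scores were 0.28, 0.38, 0.10 and -1.68 on the WPH arrays of replicates 1 to 4, against 1.14, -0.11, -1.20 and 1.10 on the AAM arrays. WPH replicate 4 and AAM replicate 3 were the 2 lowest, and the groups overlapped. The standardized difference was -0.44 (95% interval -1.83 to 0.98), with an exact permutation p of 0.543. The gene's 3 dimmer probe sets had 0.99, -0.57 and 0.54, so its direction depended on the probe set. Npas2 can take the place of Clock in the pair with BMAL1. It was dim, with a level of 6.27 below the array median of 6.66, and had z-scores of -0.65, 1.77, 1.27 and 0.00 after WPH, against -0.30, -0.27, -0.80 and -1.01 after AAM. WPH replicates 2 and 3 were its highest arrays, while WPH replicate 1 fell among the AAM arrays, which lay close together. The standardized difference of Npas2 was the largest of the 10 genes, with an unadjusted limma p of 0.075, an adjusted p of 0.9998 and an exact permutation p of 0.114. Centring each array on its median turned the Npas2 difference to -0.18, quantile normalization gave 0.10, and without WPH replicate 1 it was 2.51. Array medians ran from 6.662786 to 6.662852, while Npas2 spanned only 1.72e-05 over the 8 arrays. The medians thus differed by more than Npas2 did, and the centred value largely carries their differences.

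Per1, a member of the repressing arm that glucocorticoids and cAMP signalling also induce directly, had a mean level of 8.43. On the WPH arrays its z-scores were -0.47, -1.29, 0.82 and 1.82, against -0.82, -0.56, 0.34 and 0.16 on the AAM arrays. The highest and the lowest array were both WPH arrays, replicates 4 and 2, and the AAM arrays lay between them. The standardized difference of Per1 was 0.42 (95% interval -1.01 to 1.80), with an exact permutation p of 0.571. Per2, whose protein is the partner of the CRY proteins that sets much of the period, had z-scores of -0.04, -0.88, 0.79 and 1.07 after WPH, against -1.76, -0.26, 1.12 and -0.04 after AAM. AAM replicate 1 was the lowest and AAM replicate 3 the highest array of Per2, and the standardized difference was 0.45 (95% interval -0.97 to 1.84). Its dimmer probe set had -0.65, the opposite direction. Per3, the member of the family that the core loop needs least in mice, had a level of 6.81 and z-scores of 0.73, -0.69, -1.04 and 0.35 after WPH, against -0.76, 1.94, -0.66 and 0.12 after AAM. AAM replicate 2 stood above the other arrays. The 2 probe sets of Per3 had standardized differences of -0.30 and 1.37 and a correlation of -0.23 with each other over the 8 arrays.

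Cry1, the stronger repressor of the CLOCK and BMAL1 pair, had the second largest SD of the 10 genes on the deposited scale, 0.00022 at a level of 8.72. Its z-scores were 0.45, 0.60, 0.74 and -1.49 after WPH and 0.84, 0.06, -1.66 and 0.45 after AAM. A single array in each meal was low, WPH replicate 4 and AAM replicate 3, and the other 6 arrays lay between 0.06 and 0.84. The standardized difference of Cry1 was 0.14 (95% interval -1.25 to 1.53), with an exact permutation p of 0.686. Cry2, the second CRY repressor, had z-scores of -1.08, -0.87, 0.91 and 1.49 after WPH, against -0.56, -0.79, 1.04 and -0.13 after AAM. The same 2 arrays, WPH replicate 4 and AAM replicate 3, were its highest. The standardized difference of Cry2 was 0.20 (95% interval -1.20 to 1.58) for the brighter and -1.09 for the dimmer probe set.

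Nr1d1, the gene of REV-ERB alpha, had a level of 7.30 and z-scores of -1.01, 1.17, 0.76 and 0.43 after WPH, against -1.70, -0.09, 0.87 and -0.44 after AAM. The array with the lowest value was AAM replicate 1, and 3 of the 4 WPH arrays were above 3 of the 4 AAM arrays. Its standardized difference was 0.68 (95% interval -0.78 to 2.09), with an exact permutation p of 0.4, and Nr1d1 was the only one of the 10 genes with the same direction in each of the 14 alternatives it was given. Its difference was 0.40 without WPH replicate 2 and 0.27 without AAM replicate 1, and 1.32 without WPH replicate 1 and 1.19 without AAM replicate 3. It was 1.23 with quantile normalization. Nr1d2, the gene of REV-ERB beta, had its brightest probe set at a level of 10.41, with z-scores of 0.39, -1.76, 0.57 and 0.59 after WPH and -1.15, -0.06, 1.32 and 0.10 after AAM. WPH replicate 2 was low and the other 3 WPH arrays lay close together. The 3 probe sets of Nr1d2 had standardized differences of -0.10, 0.33 and -0.81, from the brightest to the dimmest.

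Dbp, the output gene, had the largest SD of the 10 on the deposited scale, where SDs of different genes may not be comparable. Its deposited levels were 7.5145, 7.5117, 7.5147 and 7.5169 on WPH replicates 1 to 4, against 7.5131, 7.5156, 7.5173 and 7.5148 on AAM replicates 1 to 4. As z-scores these were -0.18, -1.70, -0.08 and 1.10 after WPH, against -0.91, 0.43, 1.36 and -0.01 after AAM. The SD over the 8 arrays was 0.00185, above that of 98.98% of all probe sets, and 5 of the 18 member probe sets, those of Dbp, Cry1, Per2, Per1 and Nr1d1, had an SD above 1e-04, against 7.73% of all probe sets. AAM replicate 3 and WPH replicate 4 were highest, WPH replicate 2 and AAM replicate 1 lowest, so the spread lay within each meal. The standardized difference was -0.41 (95% interval -1.80 to 1.01), with an exact permutation p of 0.543. Without WPH replicate 2 it was 0.07.

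**Figure D1:**
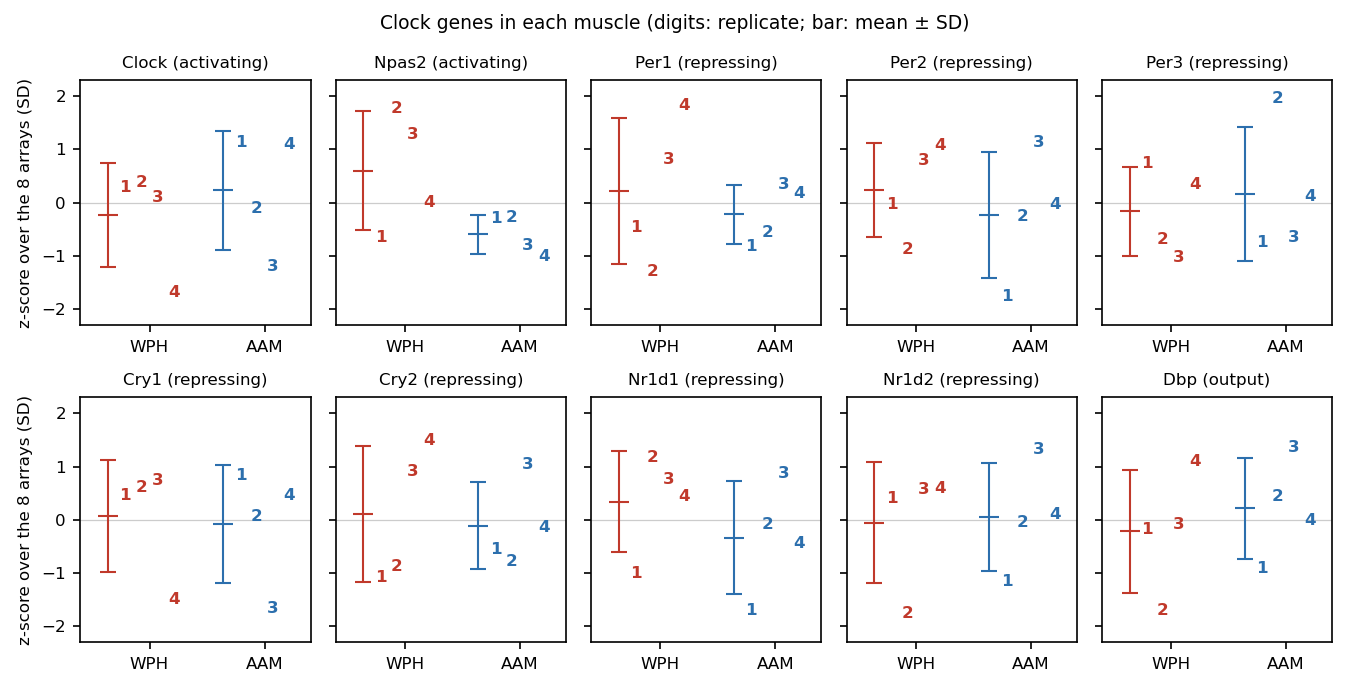
z-scores of the 10 clock genes (vertical axis, in SDs over the 8 arrays) by meal, with digits for the replicate numbers and bars for the mean ± SD of 4 arrays. The meals overlap in each panel, and Dbp spreads from -1.70 to 1.36.

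**Figure D2:**
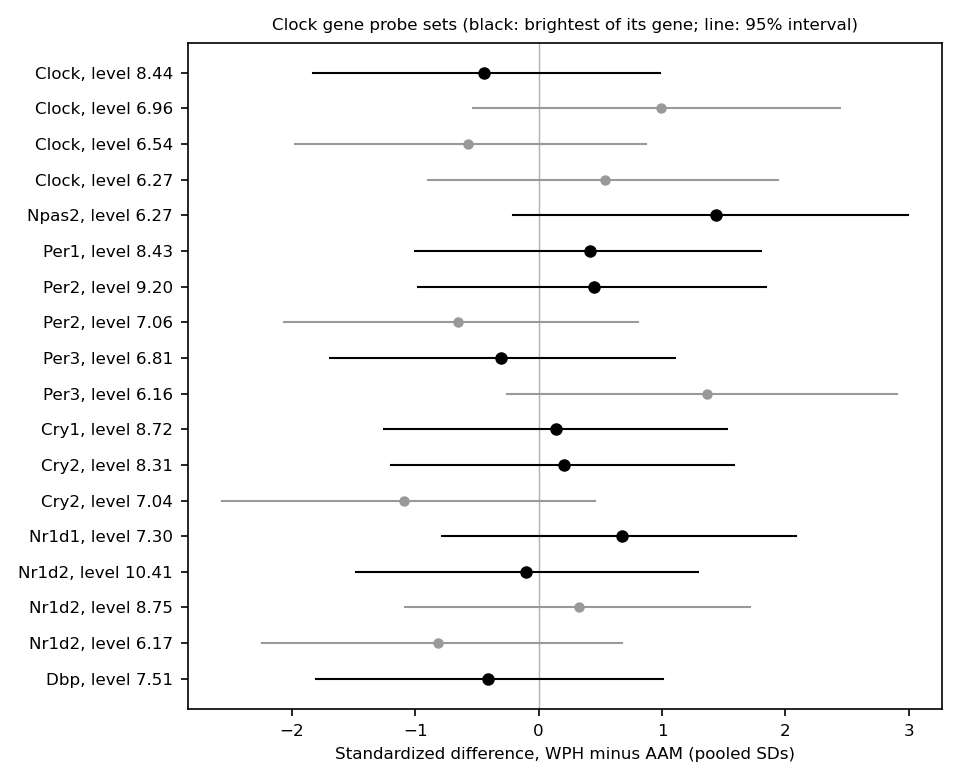
Standardized differences, WPH minus AAM in pooled SDs, of the 18 probe sets with 95% intervals, labelled with the mean level, black for the brightest probe set of a gene and grey for its others. Each interval includes 0, and probe sets of Clock, Per2, Per3, Cry2 and Nr1d2 fall on both sides of it.

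The activating and the repressing arms were then set against each other. The arm score of an array was the mean z-score of the 7 repressing genes and Dbp minus that of Clock and Npas2. It was 0.03, -1.75, -0.25 and 1.51 on WPH replicates 1 to 4, against -1.27, 0.28, 1.47 and -0.02 on AAM replicates 1 to 4. Each meal thus held a low and a high array. The WPH arrays averaged -0.11 ± 1.34 and the AAM arrays 0.11 ± 1.12 (SD, n = 4 each), and their difference of -0.23 was under the pooled SD of 1.23. The repressing and output genes alone averaged 0.07 ± 0.61 after WPH and -0.07 ± 0.56 after AAM, and the activating genes 0.18 ± 0.86 after WPH and -0.18 ± 0.60 after AAM. Over the 8 arrays Clock and Npas2 had a Pearson r of 0.02 with each other. Cry1, counted as repressing, had 0.91 with Clock and -0.83 with Dbp, so the arms were not uniform. The score is a description over chosen genes and has no test. The sign of its difference was not stable, being 0.71 with quantile normalization, 0.36 with median centring, 0.20 without WPH replicate 2 and 0.25 without AAM replicate 3.

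**Figure D3:**
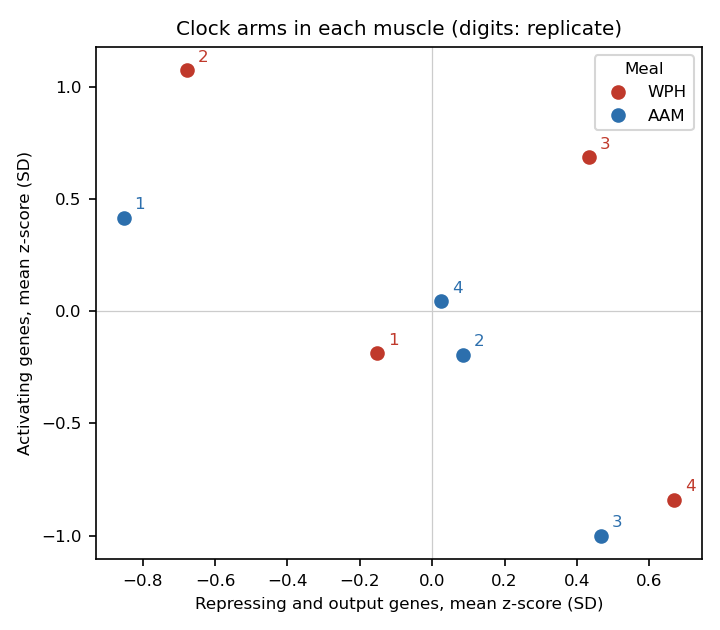
Mean z-score of the repressing and output genes (horizontal) against that of Clock and Npas2 (vertical) in each of the 8 muscles, coloured by meal and labelled with the replicate number. WPH replicate 4 and AAM replicate 3 lie at the lower right, with WPH replicate 2 and AAM replicate 1 at the upper left.

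Across rats, several of the clock genes varied together. Dbp, Nr1d2, Per2, Per1 and Cry2 had positive correlations with one another over the 8 arrays, and Clock and Cry1 had negative ones with each of them, not all of which held without WPH replicate 4 and AAM replicate 3. All 45 pairs of members were correlated over the 8 arrays, with exact permutation tests over the 40320 pairings. By Pearson's r, 12 pairs had an exact unadjusted p below 0.05, 9 with a positive and 3 with a negative r, and 0 passed after adjustment over the 45 pairs, where the lowest adjusted p was 0.0517. An absolute r of at least 0.8 was found for 7 of the 45 pairs, or 15.6%, and for 3.48% of all pairs of genes. By Spearman's rho 1 pair passed after adjustment. With values centred within each meal 5 pairs passed, namely Per1 with Cry2, Per2 with Nr1d2, Clock with Cry1, Nr1d2 with Dbp and Per2 with Dbp. Centring fixes the mean of each meal, yet the 8 centred values were permuted freely across the meals. Their p-values are therefore not exact, and these 5 may be too many. The count at an unadjusted p below 0.05 was 2 with quantile normalization, 7 without WPH replicate 4, and 5 without both it and AAM replicate 3.

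Dbp and Nr1d2 had a Pearson r of 0.90 (exact permutation p = 0.00325, adjusted 0.0517) and a Spearman rho of 0.79 (exact p = 0.0279, adjusted 0.157). Per2 and Nr1d2, both target genes of CLOCK and BMAL1, had a Pearson r of 0.88 (exact permutation p = 0.00345, adjusted 0.0517) and a Spearman rho of 0.98 (exact p = 0.000397, adjusted 0.0179). Per1 and Cry2 had a Pearson r of 0.90 (exact permutation p = 0.00126, adjusted 0.0517) and a Spearman rho of 0.81 (exact p = 0.0218, adjusted 0.157). Without the 2 arrays farthest from the median of Nr1d2, AAM replicate 1 and WPH replicate 2, r was 0.65 for Dbp with Nr1d2. For Per2 with Nr1d2, r was 0.83 without AAM replicates 1 and 3, the farthest from the median of Per2. For Per1 with Cry2, r was 0.87 without WPH replicates 2 and 4, the farthest from the median of Per1. None of these left out both WPH replicate 4 and AAM replicate 3. With values centred within each meal, r was 0.92, 0.92 and 0.91 for the 3 pairs in the order given. These values are for the brightest probe sets. The dimmer probe sets of Nr1d2 had an r of 0.44 and 0.15 with Dbp, and 0.66 and 0.18 with the brightest one. The dimmer probe set of Per2 had an r of 0.91 with Dbp, and that of Cry2 0.48. The dimmer ones of Clock had -0.61, -0.58 and -0.31 with Dbp.

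Cry1 went with Clock and against Dbp. With Clock it had a Pearson r of 0.91 (exact permutation p = 0.00655, adjusted 0.0737) and a Spearman rho of 0.76 (exact p = 0.0368, adjusted 0.165), and with Dbp a Pearson r of -0.83 (exact permutation p = 0.0121, adjusted 0.102) and a Spearman rho of -0.88 (exact p = 0.00724, adjusted 0.0815). Both relations rested in part on AAM replicate 3 and WPH replicate 4, since without these 2 arrays r was 0.50 with Clock and -0.59 with Dbp. Clock and Dbp had an r of -0.75, or -0.31 without the same 2 arrays. Without them r was -0.10 for Clock with Per1, against -0.67 over all arrays, and -0.01 for Clock with Cry2, against -0.71. For Cry1 with Cry2 it turned to 0.41 without them, against -0.69 over all arrays. Cry2 and Dbp had an r of 0.69 (exact permutation p = 0.0648), or 0.27 without them. Npas2, the other activating gene, had an r of 0.02 with Clock and -0.56 with Dbp, the second of which was 0.06 without WPH replicates 2 and 3. Nr1d1 and Nr1d2 had an r of 0.18 with each other. The r of Nr1d1 with Dbp was 0.18 over all arrays and 0.30 centred within each meal. WPH replicate 2 had the highest Nr1d1 and the lowest Dbp of all arrays. Within the 4 AAM arrays Nr1d1 had an r of 0.99 with Dbp and 0.97 with Nr1d2. Within the 4 WPH arrays these were -0.34 and -0.52.

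**Figure D4:**
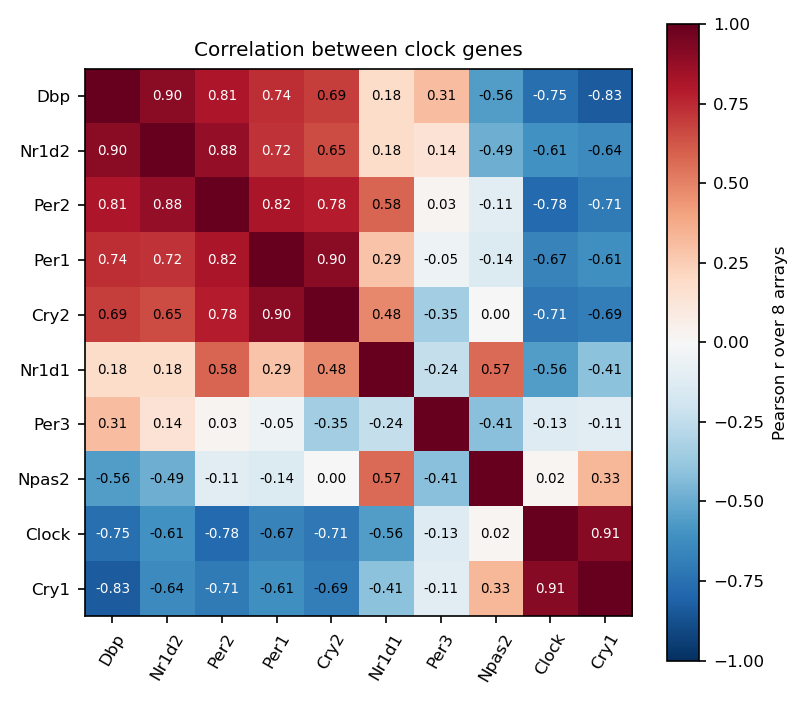
Pearson r over the 8 arrays for each pair of the 10 clock genes, printed in each cell. Dbp, Nr1d2, Per2, Per1 and Cry2 form a block of values from 0.65 to 0.90, and Clock and Cry1 have values from -0.83 to -0.61 with that block.

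The share of all genes that varied with a clock gene gives the background for these counts. Of the other 14216 genes, 12.9% had an exact p below 0.05 with Dbp, and for 0 of them it held after adjustment over all genes. Of the 9 other members, 5 had such a p with Dbp, namely Nr1d2, Cry1, Per2, Clock and Per1. Per2 had such a p with 5 of the 9 other members, where 18.1% of all genes had, and Per1 with 4, where 11.1% had. Nr1d2 had it with 3 (9.55% of all genes), Clock with 3 (21% of all genes), Cry1 with 2 (19.5%) and Cry2 with 2 (15.5%). Npas2 (2.91% of all genes), Per3 (2.95%) and Nr1d1 (9.26%) had it with 0 of the 9. The first principal component of all genes, which held 29.6% of the variance, had an r of 0.78 with Dbp (exact permutation p = 0.0236, adjusted 0.249 over 15 relations) and a rho of 0.76 (exact p = 0.0368), and r was 0.36 without the 2 arrays farthest from its median. Of the cell type scores only that of the fibroblast markers had an unadjusted p below 0.05 with Dbp, with an r of 0.75 (exact p = 0.0332, adjusted 0.249) and a rho of 0.67 (exact p = 0.0831), and r was 0.39 without the 2 farthest arrays. All 6 of these markers were measured, their summed level was 66.56 to 66.59 after WPH and 66.54 to 66.59 after AAM, and 0 of them were at 0. The part of either in the correlations between clock genes was not tested.

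Other genes of the clock, from a list of 26 symbols of which 19 were measured, were set beside Dbp in the same way. Of the 19, 7 had an exact p below 0.05, 4 with a positive and 3 with a negative r, against the 12.9% of all genes. As for every other gene, 0 of these held after adjustment over all genes. Hlf, which encodes a transcription factor of the same D-box-binding family as DBP, had an r of 0.93 (exact permutation p = 0.00283) and a rho of 0.88 (exact p = 0.00724). Its z-scores were 0.14, -1.12, -0.43 and 1.45 after WPH, against -1.32, 0.16, 1.29 and -0.17 after AAM. The r of Hlf was 0.95 without the 2 arrays farthest from the median of Dbp, WPH replicate 2 and AAM replicate 3. Bmal1, the partner of CLOCK and NPAS2, had an r of -0.84 (exact permutation p = 0.0091) and a rho of -0.76 (exact p = 0.0368), and r was -0.60 without those 2 arrays. Its z-scores were 0.18, 1.91, 0.55 and -1.38 after WPH, against -0.33, -0.33, -0.89 and 0.29 after AAM, so the array with the lowest Dbp, WPH replicate 2, had the highest Bmal1. The third D-box factor, Tef, had an r of 0.57 (exact permutation p = 0.139). Usp2, a ubiquitin protease gene under clock control, had 0.77, Timeless 0.82, and Cipc, which encodes an inhibitor of CLOCK, -0.80. Timeless was dim, with a level of 6.14 below the array median of 6.66, and Bmal1 lay close to that median at 6.69. The AMP-activated kinase subunits Prkaa1 and Prkaa2, whose kinase marks CRY1 for breakdown, had -0.71 and 0.78.

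**Figure D5:**
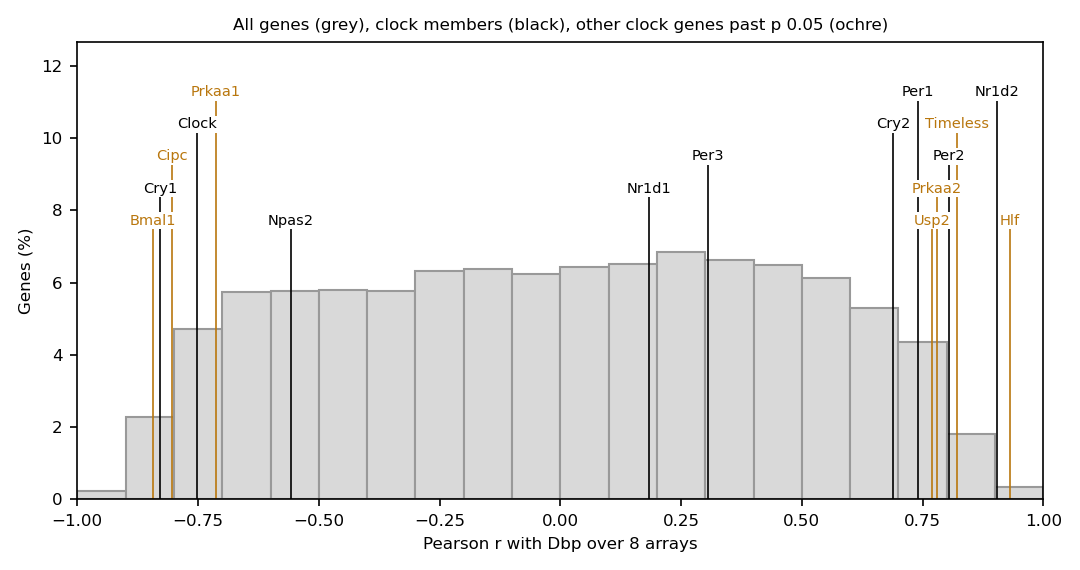
Distribution of Pearson r with Dbp over the 8 arrays for all genes (grey bars, percent of genes per bin of 0.1), with lines for the members (black) and for the 7 other clock genes with an exact p below 0.05 (ochre). Hlf and Nr1d2 lie at 0.93 and 0.90, and Bmal1 and Cry1 at -0.84 and -0.83.

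Between the meals, 0 of the 19 other clock genes passed limma's adjusted threshold in either direction, 13 were higher and 6 lower after WPH (46.1% of all genes were higher), and their median standardized difference was 0.22, beside -0.06 over all genes. Btrc, an F-box protein gene whose ligase degrades PER proteins, had 1.86, the only one of the 19 with an unadjusted limma p below 0.05 (0.0307, exact permutation p = 0.0571), against 3.58% of all probe sets. Csnk1d, the casein kinase that phosphorylates PER proteins, had 1.29, Bhlhe40, an E-box repressor, 0.97, and Prkaa1 0.89. Bmal1 had 0.62 and Hlf 0.02. Among 14 measured genes of muscle that follow the clock, 0 passed by limma's adjusted or unadjusted p, 10 were higher and 4 lower after WPH, with a median of 0.18. Of those, Myod1, the myogenic factor, had 1.13, Ankrd2 1.11, the uncoupling protein gene Ucp3 0.95 and the cold-inducible RNA-binding protein gene Cirbp -0.72. Among 11 measured glucocorticoid-induced genes, the group to which Per1 belongs, 0 passed the adjusted and 1 the unadjusted threshold (3.58% of all probe sets), 4 were higher and 7 lower, with a median of -0.37. That gene, the metallothionein gene Mt1, had 3.00 and each WPH array above each AAM array (exact permutation p = 0.0286, the smallest possible), as had 2.23% of all probe sets in either direction, while Pik3r1 had -1.10, Cdkn1a -1.03 and Ddit4 -0.78.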

How the data were processed

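The deposited values, 1 array per rat and 1 value per probe set, are on a log2-like scale. The submitters' processing notes name R 2.7.2. How background, normalization and summary were done is not stated in the labels, so scale and centring stay unknown. Samples were grouped by their titles, whose replicates are called biological. The median was 6.66 on each array. Of 31099 probe sets, 57 controls were left out, and 20826 of the rest had 1 gene symbol, 436 several and 9780 none in the platform annotation.

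limma 3.58.1 (R 4.3.3, lmFit with eBayes, prior df 0.549) was fitted to all 31042 probe sets, two-sided, with Benjamini-Hochberg adjustment over all and a threshold of 0.05. Intervals used the noncentral t distribution (6 degrees of freedom). Exact permutation tests were two-sided, over 35 splits into 4 and 4 (smallest p 0.0286) or 40320 pairings. Fit and pair test were tested on simulated data. The number of arrays limits the precision.

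Members and gene lists were chosen with earlier results of these data known. Named were all members, up to 4 genes per list by limma p, and the 5 genes of highest and lowest r with Dbp and Npas2. The listed genes named for their r with Dbp, and Tef, Hlf, Bmal1, Slc2a4, Tbc1d1, Pfkfb3 and Ucp3, were chosen after their values were seen. Alternatives covered normalization, scale, filters, the replicate block, probe sets, arm members and arrays left out. Leaving out AAM replicate 3 and WPH replicate 4 together was chosen after seeing the data.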

Additional observations from a re-analysis of the deposited data

Results flagged for a closer look

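Of 38 sets of 4 arrays tested by Dixon's ratio at its 95% critical value (18 probe sets and the arm score, in both meals), 3 held an array apart from its group, and chance gives about 1 in 20, or 1.9. For Clock (ratio 0.864) and Cry1 (0.870) this was WPH replicate 4, which was low. For the brightest probe set of Nr1d2 (0.917) it was WPH replicate 2, which was low.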

How the results depend on the processing

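In 122 of 148 alternatives to the meal differences of the 10 genes the direction was kept, in 25 it turned, in 1 (Nr1d2 with quantile normalization) the difference was 0, and in 0 did a gene pass limma's adjusted threshold (lowest adjusted p 0.731). Leaving out each array in turn gave standardized differences from -1.07 to 0.026 for Clock, -0.439 to 0.788 for Cry1, -0.259 to 0.614 for Cry2, -0.940 to 0.071 for Dbp, -0.505 to 0.589 for Nr1d2, -0.123 to 1.11 for Per1, -0.045 to 1.02 for Per2, -0.593 to 0.378 for Per3, 1.15 to 2.51 for Npas2 and 0.268 to 1.32 for Nr1d1. Other probe sets turned Clock (0.540 and 0.990), Cry2 (-1.09), Nr1d2 (0.325), Per2 (-0.653) and Per3 (1.37). Median centring turned Cry2 (-0.227) and Npas2 (-0.178), quantile normalization turned Per3 (0.760) and gave 0.0986 for Npas2 and 1.23 for Nr1d1, the fourth-root scale turned Clock (0.126) and Nr1d2 (0.325), and leaving out both AAM replicate 3 and WPH replicate 4 turned Nr1d2 (0.0996) and gave -0.650 for Per3. Over all probe sets, quantile normalization made 5 calls and the fourth-root scale 18, against 0. The number of pairs passing after adjustment was 5 on the fourth-root scale, 5 centred within each meal (where p is not exact), 1 by Spearman's rho and 0 to 2 when arrays were left out in turn, against 0. At an unadjusted p below 0.05 it was 2 with quantile normalization, 5 without both AAM replicate 3 and WPH replicate 4 and 7 to 14 when arrays were left out in turn, against 12. The cause was not tested. The arm difference stayed within 1 pooled SD (1.23) of its value of -0.23 in 16 alternatives. That band takes in both signs and says little about stability. The values ran from -0.72 without WPH replicate 4 to 0.71 with quantile normalization. With the replicate block 0 probe sets were called, as without it, and 1367 had an unadjusted p below 0.05, against 1110, and the difference of Nr1d1 was 1.67. Deviations of same-numbered arrays had correlations of 0.203, 0.142, 0.099 and -0.127 for replicates 1 to 4, so the numbers were not taken as pairs, and WPH replicate 4 correlated best with AAM replicate 3 (0.328).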

Other observations

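Of 14 measured muscle genes that follow the clock, 3 had an exact p below 0.05 with Dbp, each with a negative r, against 12.9% of all genes in either direction. Of the other 11, 6 had a negative r and 5 a positive one, among them Tbc1d1 (0.53), Pfkfb3 (0.46) and Ucp3 (0.29). Pdk4, whose kinase turns muscle from glucose to fat, had an r of -0.86 (exact permutation p = 0.00903) and a rho of -0.96 (exact p = 0.000694), but its levels spanned only 6.80e-07 over the 8 arrays, and its SD was above that of 2.17% of probe sets. The ubiquitin ligase genes of muscle atrophy, Fbxo32 and Trim63, had an r of -0.78 (exact permutation p = 0.0246) and -0.77 (exact permutation p = 0.0221). The z-scores of Trim63 were 0.70, 0.37, 0.61 and -0.96 after WPH, against 0.85, -0.06, -2.02 and 0.51 after AAM, lowest on AAM replicate 3 and WPH replicate 4. Without the 2 arrays farthest from the median of Dbp, WPH replicate 2 and AAM replicate 3, r was -0.96 for Pdk4, -0.91 for Fbxo32 and -0.94 for Trim63. WPH replicate 4 was kept, so these values do not give r without both it and AAM replicate 3. The glucose transporter gene Slc2a4 had -0.70 (exact permutation p = 0.054). Of 11 measured glucocorticoid-induced genes 1 had such a p, the kinase gene Sgk1, with an r of 0.72 (exact permutation p = 0.044) that was 0.26 without those 2 arrays. With adjustment over all 14216 genes, 0 of these passed.

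Over all 14217 genes, the 5 with the highest r with Dbp were Ptk7, Aph1bl2, Lipa, Clic2 and Ppt1 (0.94 to 0.95), and the 5 with the lowest were S100pbp, Ube2h, Zfp341, Exosc3 and Hey1 (-0.96 to -0.94). For Npas2 they were Cbs, Ebi3, Unc5b, Tfr2 and Ssc4d (0.93 to 0.95), and Ppip5k1, Mchr1, Scel, Plekha6 and Pantr1 (-0.98 to -0.91). These are descriptions over 8 arrays.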
